A study of Caenorhabditis elegans with 6 samples.

Results

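*nhr-49* and 7 genes whose products work with it in lipid regulation were followed in whole *C. elegans* animals, to see whether the transcripts of its partners differ when *nhr-49* is mutated. The 8 genes were taken by symbol from a table of 46739 genes. They are *nhr-49*, the 5 partner receptor genes *nhr-80*, *nhr-13*, *nhr-66*, *nhr-105* and *nhr-22*, the coactivator gene *mdt-15* and the transcription factor gene *sbp-1*. mRNA came from late L4 animals grown at 20°C on empty vector (HT115) bacteria. There were 3 libraries of wild-type animals (strain PMD121) and 3 of *nhr-49(nr2041)* mutants (strain PMD122). Both strains were F2 homozygotes of a cross of N2 with STE68, so 1 strain stands for each genotype and what else differs between the strains cannot be told apart from the mutation. *nr2041* removes part of *nhr-49*, and reads from the rest of the gene can still be counted.

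NHR-49 is a nuclear hormone receptor related to mammalian HNF4 that switches on fatty acid β-oxidation and desaturation, mostly in the intestine. Receptors of this kind act in pairs or with cofactors, and NHR-49 binds different partner receptors on different target genes. NHR-80 and NHR-13 are known for work on the fatty acid desaturase genes, and NHR-66 for the repression of sphingolipid genes, while NHR-105 and NHR-22 bind NHR-49 in protein interaction assays. MDT-15, a subunit of the Mediator complex that links transcription factors to RNA polymerase, binds NHR-49 and also SBP-1, the worm homolog of the sterol regulatory element-binding proteins that drive fat synthesis.

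Of the 8 transcripts, *nhr-49* was lower in the mutants and no partner passed the test. *nhr-66* and *nhr-80* were higher in every mutant library than in any wild-type library, by 0.61 and 0.37 on the log2 scale, but with adjusted p = 0.153 and 0.187 from limma. *nhr-13*, *nhr-105*, *nhr-22*, *mdt-15* and *sbp-1* overlapped between the genotypes. Levels are RPKM, which are reads scaled to gene length and to the library total. Fold changes are mutant minus wild type on log2(RPKM + 1), a scale that understates changes of low genes, and a call is an adjusted p under 0.05 from limma over 13965 genes. All 8 genes passed the filter of at least 1 RPKM in at least 3 libraries. Across all genes tested 4.13% were called, 3.32% as higher and 0.816% as lower in the mutants. Of the 8 genes 1 was called, *nhr-49*, and 0 of the 7 partners were. At an unadjusted p under 0.05 limma gave 2 of the 7 partners, *nhr-66* and *nhr-80*, against 10.9% of all genes in the higher direction, and limma voom on the recovered reads called 0. The genotypes did not overlap for 3 of the 8 genes. Such separation was common over all genes, at 17.6% in the higher direction, that of *nhr-66* and *nhr-80*, and 3.78% in the lower, that of *nhr-49*. It was more common still among genes with an *nhr-* symbol, where 70 of 191 tested (36.6%) were higher without overlap. On a list of 10 other receptors, most of them HNF4-type, 7 were. The shares over all genes and over *nhr-* symbols include genes under 1 RPKM in every wild-type library. Those genes pass the filter only through the mutant libraries, so their separation in the higher direction was set in advance. The median of all genes was 0.10, so rises of this size sit against a small general shift to higher values, which became -0.04 after quantile normalization.

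**Figure D1:**
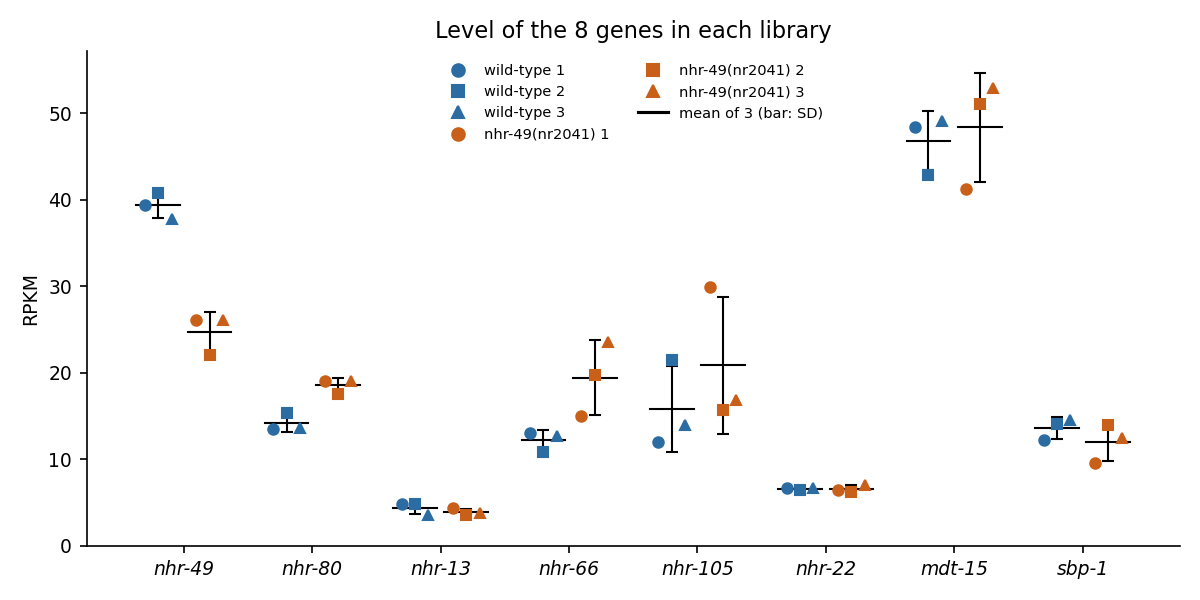
RPKM (vertical axis, linear) of the 8 genes in each of the 6 libraries, wild-type in blue and *nhr-49(nr2041)* in orange, with the mean of 3 libraries and its SD. The *nhr-49* points of the mutants sit between 22.1 and 26.1 RPKM, below the wild-type points between 37.8 and 40.8 RPKM, and *nhr-105* has its highest point of each genotype in wild-type replicate 2 and mutant replicate 1.

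Library totals worked back from the RPKM were 24523159 to 30183162 reads. The first principal component (59.4% of the variance) separated the genotypes, and on the second (22.4%) the other 4 libraries lay away from wild-type replicate 2 and mutant replicate 1, called the outlying libraries here. Intestinal markers, which check the tissue where NHR-49 mostly acts, summed to 5639 to 6358 RPKM in wild-type and 6140 to 7765 RPKM in mutant animals, with 1 of 11 called. Germline markers summed to 343 to 580 RPKM and 206 to 570 RPKM, lowest within each genotype in the outlying libraries. Sperm marker sums were also lowest there within each genotype, and hypodermis and neuron marker sums were highest. Single hypodermis markers did not all follow the sum. Body wall muscle markers summed to 3662 to 3824 RPKM and 2103 to 3437 RPKM, lowest in mutant replicate 1. Of these markers 0 of 7 were called, beside 4.13% of all genes tested. However, 0 of the 7 had a positive fold change, and their median was -0.43. For 4 of the 7 the mutants were lower without overlap, beside 3.78% of all genes. Among 11 markers of late L4 and adult cuticle timing 0 were called, but the adult collagen gene *col-19* was at 244, 43.6 and 210.5 RPKM in wild-type replicates 1 to 3 and at 79.2, 102 and 92.1 RPKM in the mutants. Without the outlying libraries *col-19*, *col-7* and *col-62* were lower in the mutants (log2 fold changes -1.22, -1.17 and -1.31, limma adjusted p from 6.22e-05 to 1.82e-04). No marker was at 0 in all libraries. In whole animals fewer cells of a type and less RNA per cell cannot be told apart, and the part of these marker differences in any result was not tested.

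*nhr-49* itself spans 5030 bases on chromosome I of WBcel235 (9869651 to 9874680, plus strand), with 7 annotated transcripts. Its levels were 39.4, 40.8 and 37.8 RPKM for wild-type replicates 1 to 3, against 26.1, 22.1 and 26.1 RPKM for the mutants. No mutant library reached the lowest wild-type one. Wild-type replicates 1 to 3 held 2553, 2632 and 2210 of its reads and the mutants 1376, 1276 and 1646, so reads from the gene remained in every mutant library. The mutant mean of 24.8 ± 2.30 RPKM was 0.629 of the wild-type mean of 39.35 ± 1.499 RPKM (SD, n = 3 per genotype). The log2 fold change was -0.65 with a 95% interval from -0.91 to -0.39 (limma adjusted p = 0.016). RPKM divides by the length of the whole gene in both genotypes, so reads missing from the deleted part and less transcript cannot be told apart in this value. The call was lost without any 1 of the 3 wild-type libraries or without mutant replicate 2 (limma adjusted p from 0.055 to 0.093), while the fold change stayed between -0.69 and -0.57. With replicate number added to the fit as a block the call was lost too (limma adjusted p = 0.096).

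**Figure D2:**
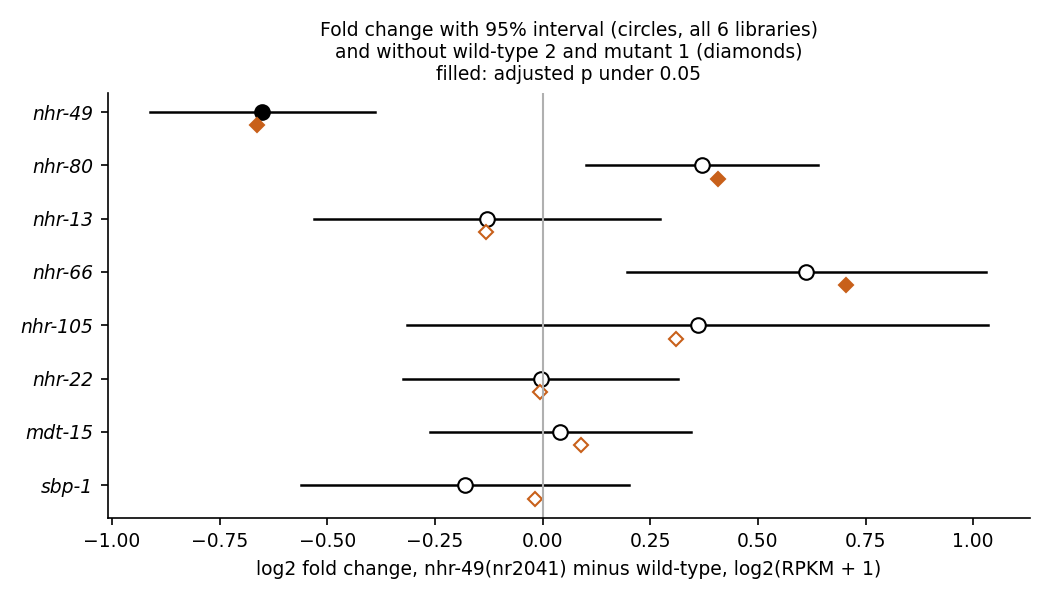
Log2 fold change of each gene (horizontal axis, mutant minus wild type on log2(RPKM + 1)) with its 95% interval from limma over 6 libraries (circles), and without wild-type replicate 2 and mutant replicate 1 (diamonds), filled where the adjusted p is under 0.05. *nhr-49* at -0.65 is the filled circle, and *nhr-66* at 0.71 and *nhr-80* at 0.41 join it as filled diamonds.

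Of the receptors known for the desaturase genes, *nhr-80* had separate genotypes and *nhr-13* overlapping ones, and neither passed the test. *nhr-80* (chromosome III, 11985 to 14869, minus strand) encodes a receptor needed for normal oleic acid synthesis. It was at 13.5, 15.3 and 13.6 RPKM in wild-type replicates 1 to 3 and at 19.03, 17.58 and 19.06 RPKM in the mutants. The lowest mutant library was therefore above the highest wild-type library. The log2 fold change was 0.37 (95% interval 0.10 to 0.64, limma adjusted p = 0.187), or 0.25 after quantile normalization (limma adjusted p = 0.532). Leaving out any 1 library gave 0.34 to 0.42 (limma adjusted p from 0.186 to 0.618). Without the outlying libraries the value was 0.41 and the adjusted p from limma was 0.049. In that smaller comparison 6.80% of all genes and 31 of the 191 receptor genes were called higher, genes that pass the filter only through the mutants included. The cuticle collagen genes above were lower there. The part of this stage-linked difference in the *nhr-80* and *nhr-66* calls was not tested.

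*nhr-13* (chromosome V, 2192485 to 2196827, plus strand) had the lowest level of the 8 genes and rests on 135 to 203 reads per library, where the counting error of a single library is up to 8.61%. It was at 4.79, 4.79 and 3.53 RPKM in wild-type replicates 1 to 3 and at 4.32, 3.58 and 3.78 RPKM in the mutants. The ranges overlapped, and the difference on the log2 scale was -0.13 (interval -0.53 to 0.27, limma adjusted p = 0.794).

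*nhr-66* had the largest positive fold change of the 8 genes, and its mutant libraries were spread more widely than those of *nhr-80*. The gene lies on chromosome IV (8226331 to 8236602, minus strand) and has 10 annotated transcripts. Wild-type replicates 1 to 3 were at 13.03, 10.88 and 12.68 RPKM and the mutants at 14.98, 19.76 and 23.59 RPKM. Mutant replicate 1, an outlying library, lay nearest to the wild-type libraries. Its mean was 12.2 ± 1.15 RPKM in wild-type and 19.4 ± 4.32 RPKM in mutant animals (SD, n = 3). On the log2 scale the difference was 0.61 (interval 0.20 to 1.03, limma adjusted p = 0.153). Without mutant replicate 1 the fold change was 0.78 (limma adjusted p = 0.026), and without that library and wild-type replicate 2 it was 0.71 (limma adjusted p = 0.0058). Leaving out any other library gave 0.47 to 0.66 (limma adjusted p from 0.260 to 0.386), and quantile normalization gave 0.51 (adjusted p = 0.312). *nhr-66* overlaps *serp-1.2* on the other strand, which was at 11.6 to 12.4 RPKM in wild-type and 11.6 to 18.2 RPKM in mutant animals (log2 fold change 0.22, limma adjusted p = 0.652). Whether counting used strand is not given in the sources used here, so reads in the shared stretch cannot be assigned. The length that the RPKM imply for *nhr-66* is 2799 bases, against 4831 bases of exon in the current annotation, so the gene model behind the counts was shorter.

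*nhr-105* and *nhr-22*, the partners known from protein interaction, had contrasting spreads. *nhr-105* (chromosome IV, 7050156 to 7053450, plus strand) was at 12.03, 21.48 and 13.92 RPKM in wild-type replicates 1 to 3 and at 29.96, 15.72 and 16.87 RPKM in the mutants. Its highest libraries were wild-type replicate 2 and mutant replicate 1, and the genotypes overlapped. The log2 fold change of 0.36 had the widest interval of the 8 genes, from -0.31 to 1.03 (limma adjusted p = 0.658), and went down to 0.08 without mutant replicate 1. Within each genotype, germline and sperm marker sums were lowest in the same libraries. They were 343 and 126 RPKM in wild-type replicate 2, and 206 and 208 RPKM in mutant replicate 1. Hypodermis and neuron marker sums were highest there, at 6066 and 409 RPKM in wild-type replicate 2, and 6889 and 550 RPKM in mutant replicate 1. The sum gives most weight to abundant collagen genes such as *col-10*, and not each hypodermis marker followed it. *col-12* and *bli-1* were at their lowest wild-type levels in wild-type replicate 2, at 627.5 and 195.1 RPKM. The part of these marker differences in the *nhr-105* values was not tested.

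*nhr-22* (chromosome II, 6446195 to 6449792, minus strand) had the smallest relative spread of the 8 genes among wild-type libraries. It was at 6.66, 6.46 and 6.63 RPKM in wild-type replicates 1 to 3 and at 6.46, 6.20 and 7.04 RPKM in the mutants. The coefficient of variation was 1.61% among wild-type libraries, below the 5.02% to 5.30% that counting error alone gives for their 356 to 397 reads, and 6.56% among mutants. The log2 fold change was -0.0045 (interval -0.32 to 0.31, limma adjusted p = 0.992), so a change beyond these bounds in either direction lies outside the interval.

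The coactivator gene *mdt-15* had the highest level of the 8 genes in both genotypes. The gene lies on chromosome III (5828557 to 5833751, minus strand). It was at 48.4, 42.9 and 49.2 RPKM in wild-type replicates 1 to 3 and at 41.2, 51.1 and 52.9 RPKM in the mutants. The lowest value of each genotype was again in wild-type replicate 2 and mutant replicate 1. The log2 fold change was 0.04 (interval -0.26 to 0.34, limma adjusted p = 0.919), with its sign reversed after quantile normalization (-0.05). *mdt-15* overlaps R12B2.8 on the other strand, at 3.33 to 5.07 RPKM in wild-type and 2.24 to 7.55 RPKM in mutant animals. It also overlaps R12B2.13 on the same strand, which has no values here. Among 28 tested Mediator subunits *mdt-15* had the highest wild-type level, followed by *mdt-9*, another subunit, at 35.2 RPKM. Of the other 27 subunits 0 were called by limma, beside 4.13% of all genes, with a median of 0.09 beside 0.10 for all genes. For 7 of the 27 (25.9%) the mutants were higher without overlap, beside 17.6% of all genes.

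*sbp-1* (chromosome III, 11428367 to 11442566, minus strand) was at 12.20, 14.03 and 14.57 RPKM in wild-type replicates 1 to 3 and at 9.586, 13.93 and 12.45 RPKM in the mutants. Only mutant replicate 1 lay below all wild-type libraries. The difference on the log2 scale was -0.18 (interval -0.56 to 0.20, limma adjusted p = 0.689), and it was -0.02 without the outlying libraries. *sbp-1* overlaps *idpc-1* on the other strand, which was more abundant, at 88.8 to 149 RPKM in wild-type and 55.8 to 120 RPKM in mutant animals.

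Because RPKM is per length, the levels of the 8 genes can be ordered within a genotype. The order rests on the length used for each gene. For *nhr-49* in the mutants that length includes the deleted part, and for *nhr-66* it was 2799 bases against 4831 bases of annotated exon. In wild-type animals *mdt-15* was first (mean 46.8 RPKM) and *nhr-49* next, and neither overlapped the gene after it. *nhr-105*, *nhr-80*, *sbp-1* and *nhr-66* followed with means from 15.8 to 12.2 RPKM, and each overlapped its neighbour. *nhr-22* (6.58 RPKM) and *nhr-13* (4.37 RPKM) came last and were separate from each other and from those above. In the mutants *nhr-49* kept the second place by its mean but overlapped *nhr-105*. *nhr-105*, *nhr-66* and *nhr-80*, with means from 20.9 to 18.6 RPKM, overlapped their neighbours, while *sbp-1* at 11.99 RPKM was below all 3 libraries of *nhr-80*.

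Within a library, the mean ratio of each partner to *nhr-49* was greater in the mutants. The ratios were compared by an exact permutation test alone, which cannot give p below 0.10 here. In wild-type animals *nhr-80* was at 0.343, 0.375 and 0.360 of the *nhr-49* level in replicates 1 to 3, and in the mutants at 0.728, 0.795 and 0.732. The *nhr-66* ratio was 0.331, 0.266 and 0.335 in the same wild-type order, against 0.573, 0.894 and 0.905 in the mutants. These differences were 1.07 and 1.32 on the log2 scale. *nhr-105* was below *nhr-49* in all 3 wild-type libraries (0.305 to 0.526) and above it in mutant replicate 1 (1.15). The ratio of *mdt-15* to *nhr-49* was 1.05 to 1.30 in wild-type and 1.58 to 2.31 in mutant animals. For 6 of the 7 partners the ratios did not overlap, each with an exact two-sided permutation p = 0.10, the smallest this test can give (0.117 after adjustment over 7 ratios). The ratio of *sbp-1* overlapped, at 0.310 to 0.385 and 0.367 to 0.630 (exact permutation p = 0.20). All 7 ratios share *nhr-49* as the divisor, so its lower value enters each of them, the deleted stretch included, and they are not separate observations. *nhr-22* and *mdt-15* are among the 6, with log2 fold changes of their own of only -0.0045 and 0.04. A gene that hardly differs can thus be separate here, and the count is no result about the partners. The share over all genes was not computed.

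**Figure D3:**
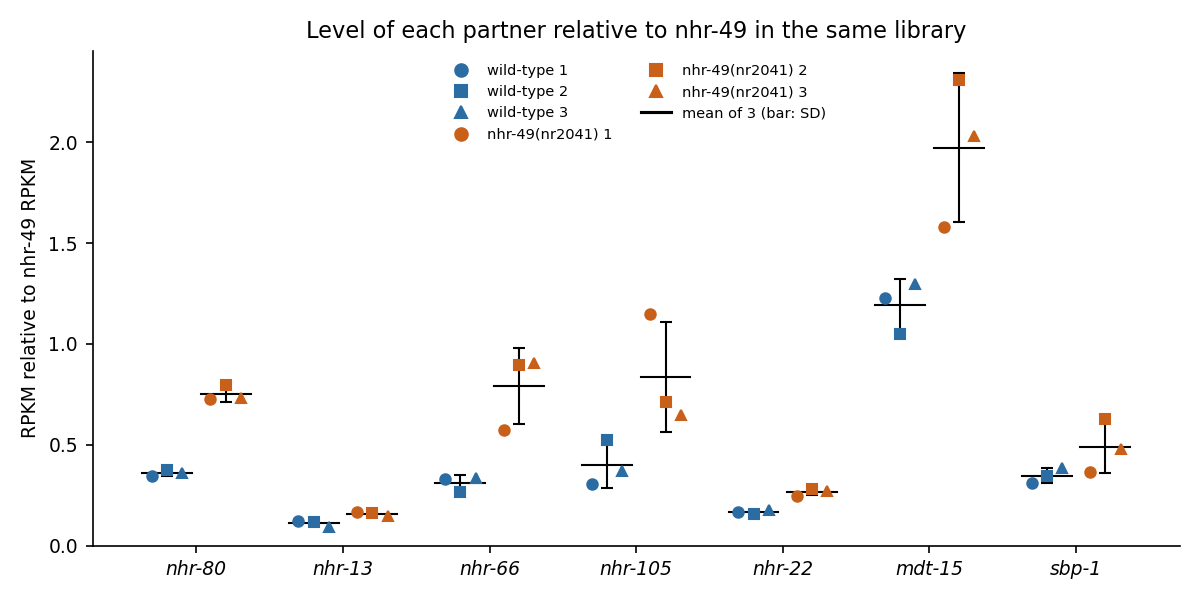
RPKM of each partner divided by RPKM of *nhr-49* in the same library (vertical axis, linear, no unit), wild-type in blue and *nhr-49(nr2041)* in orange, with the mean of 3 libraries and its SD. The *nhr-80* ratios form tight groups at 0.343 to 0.375 and 0.728 to 0.795, and the *sbp-1* groups overlap.

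Set among all receptor genes, *nhr-49* was one of the most abundant and its partners were in the upper part or the middle. Of 283 genes with an *nhr-* symbol, 274 were above 0 and 191 were tested. By wild-type level *nhr-49* was 4th, *nhr-105* 13th, *nhr-80* 16th, *nhr-66* 23rd, *nhr-22* 55th and *nhr-13* 92nd, and in the mutants *nhr-49* was 6th. The limits of length given above for *nhr-49* and *nhr-66* hold for these places too. By fold change *nhr-66* was 27th from the top and *nhr-49* 189th of 191. Among these receptors 16 were called higher and 2 lower, beside 3.32% and 0.816% of all genes tested. Most of the 16 were under 1 RPKM in every wild-type library. They entered the test only through the mutants, so their direction was set by the filter. Their median was 0.24, or 0.07 after quantile normalization, beside 0.10 and -0.04 for all genes.

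Unlike the partners, most of the higher receptors were near 0 in wild-type animals. A gene under 1 RPKM in every wild-type library passes the filter only through the mutant libraries. Such a gene can therefore enter the test only with higher values in the mutants. *nhr-82* had 0 reads in all 3 wild-type libraries and was at 28.9, 25.2 and 22.8 RPKM in the mutants (limma adjusted p = 6.03e-06). *nhr-155*, *nhr-81* and *nhr-265* were at 0 to 0.258 RPKM in each wild-type library and at 9.01 to 22.4 RPKM in the mutants (limma adjusted p from 1.64e-05 to 3.10e-05). These calls stood with each library left out in turn, in fits on the genes that had passed the filter with all 6 libraries. The other lower receptor, *nhr-113*, was at 4.402, 6.524 and 3.714 RPKM in wild-type and 1.553, 2.044 and 2.018 RPKM in mutant animals (limma adjusted p = 0.044), and its call was lost with any library left out (adjusted p from 0.057 to 0.138). *nhr-245* (log2 fold change -0.85, limma adjusted p = 0.053) and *nhr-114* (-0.57, adjusted p = 0.055) came next. *nhr-114*, a receptor with roles in the response to diet, had the highest wild-type level of the tested receptors, at 98.0 ± 5.78 RPKM.

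**Figure D4:**
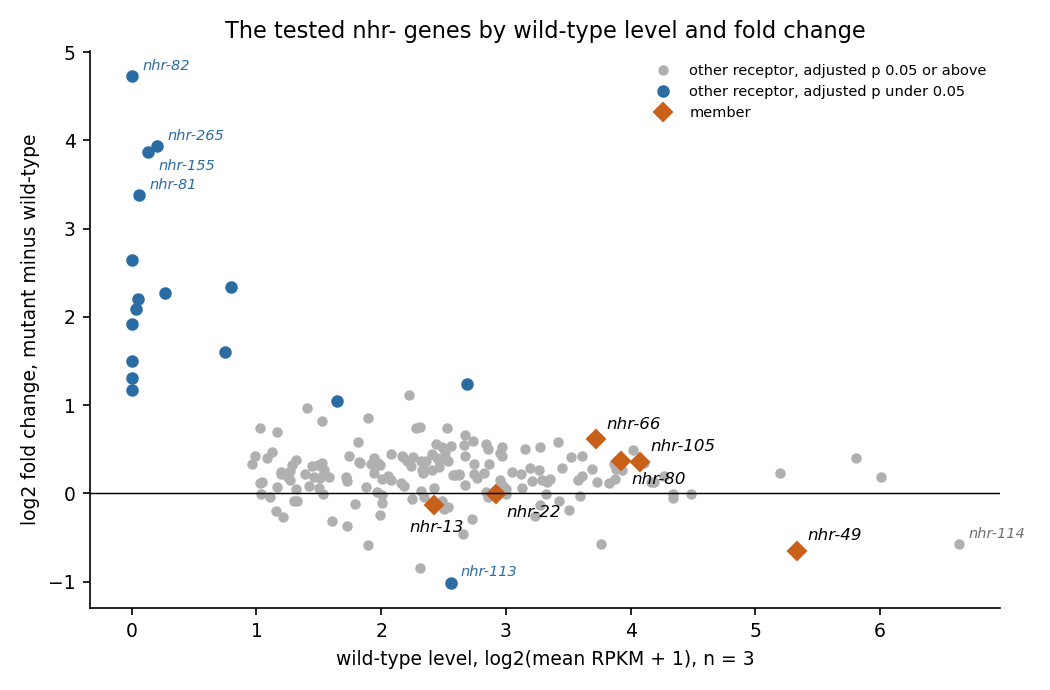
The 191 tested receptor genes by wild-type level (horizontal axis, log2 of mean RPKM + 1, n = 3) and log2 fold change (vertical axis, mutant minus wild type), with the 6 receptors followed here as orange diamonds and other called receptors in blue. *nhr-82*, *nhr-155*, *nhr-81* and *nhr-265* sit at the upper left, and *nhr-49* at the lower right at -0.65.

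Genes of the pathways linked to each partnership can be set beside the levels of the partners. Not every gene of these lists is a known target, and the lists were chosen with earlier results of these data known. For NHR-80 and NHR-13 the list was the desaturases, of which 3 of 7 were called lower and 0 higher, with a median of -0.23. Over all genes tested 0.816% were called lower and 3.32% higher, with a median of 0.10. *fat-6*, a stearoyl-CoA desaturase gene, was at 359, 376 and 379 RPKM in wild-type replicates 1 to 3 and at 133, 123 and 123 RPKM in the mutants. *fat-5*, a palmitoyl-CoA desaturase gene, was at 12.97 to 18.22 RPKM and 0.0334 to 0.244 RPKM, and *fat-7*, the paralog of *fat-6*, at 31.3 to 49.3 RPKM and 0 to 0.0303 RPKM. The desaturases that act later, on the way to polyunsaturated fatty acids, did not pass the test, with log2 fold changes of -0.23 for *fat-1*, -0.19 for *fat-2*, 0.45 for *fat-3* and 0.38 for *fat-4* (limma adjusted p from 0.240 to 0.604). The lower desaturases stood beside *nhr-80*, which was above the wild-type range in each mutant library without passing the test, and *nhr-13*, which overlapped.

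For NHR-66 the list was 25 genes of sphingolipid synthesis and breakdown, of which 6 were called higher and 1 lower, with a median of 0.25. The shares over all genes tested were 3.32% higher and 0.816% lower, with a median of 0.10. *tag-38*, which is similar to the sphingosine phosphate lyase gene *spl-1*, was at 2.67, 2.01 and 2.65 RPKM in wild-type replicates 1 to 3 and at 204, 183 and 174 RPKM in the mutants. F27E5.1, a ceramidase gene, was at 40.28 to 46.86 RPKM in wild-type and 119.3 to 135.1 RPKM in mutant animals (log2 fold change 1.501, limma adjusted p = 1.48e-04). *sptl-2*, a subunit of the first enzyme of sphingolipid synthesis, was higher by 0.80 on the log2 scale (limma adjusted p = 0.0087) and the acid ceramidase gene *asah-1* by 1.26 (adjusted p = 0.015). The calls of *sptl-2*, *asah-1* and the sphingomyelinase gene *asm-2* were lost when wild-type replicate 1 or mutant replicate 2 was dropped (limma adjusted p up to 0.058, 0.079 and 0.076). Those of the glucosylceramidase genes *gba-1*, which was higher, and *gba-4*, the lower gene, stood in 1 of 6 such settings each. Without wild-type replicate 1, and likewise without mutant replicate 2, the list had 2 higher and 0 lower genes. They stood beside an *nhr-66* transcript that was above the wild-type range in each mutant library but did not pass the test.

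For NHR-49 itself the list was β-oxidation and starvation genes, where 4 of 8 were called lower and 2 higher, with a median of -1.13. The shares over all genes tested were 0.816% lower and 3.32% higher, with a median of 0.10. *acs-2*, which activates fatty acids for mitochondrial β-oxidation, was at 31.1, 86.8 and 32.8 RPKM in wild-type animals, highest in wild-type replicate 2, and at 0.256, 0.341 and 0.0492 RPKM in the mutants. *icl-1*, the glyoxylate cycle gene, *ech-1.1*, an enoyl-CoA hydratase gene, and *cpt-5*, a carnitine palmitoyltransferase gene, were lower too (limma adjusted p from 1.19e-04 to 4.87e-04). *hacd-1*, a hydroxyacyl-CoA dehydrogenase gene, and *ech-9*, another hydratase gene, were higher, with log2 fold changes of 1.43 and 3.15 (limma adjusted p = 0.010 and 2.67e-04). *acdh-1*, an acyl-CoA dehydrogenase gene, at 0.26, and *cpt-2*, another carnitine palmitoyltransferase gene, at -0.16 did not pass the test. *fmo-2*, a flavin monooxygenase gene known as an NHR-49 target, was under the filter, with 11 to 14 reads in each wild-type library and 1 read in each mutant library.

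**Figure D5:**
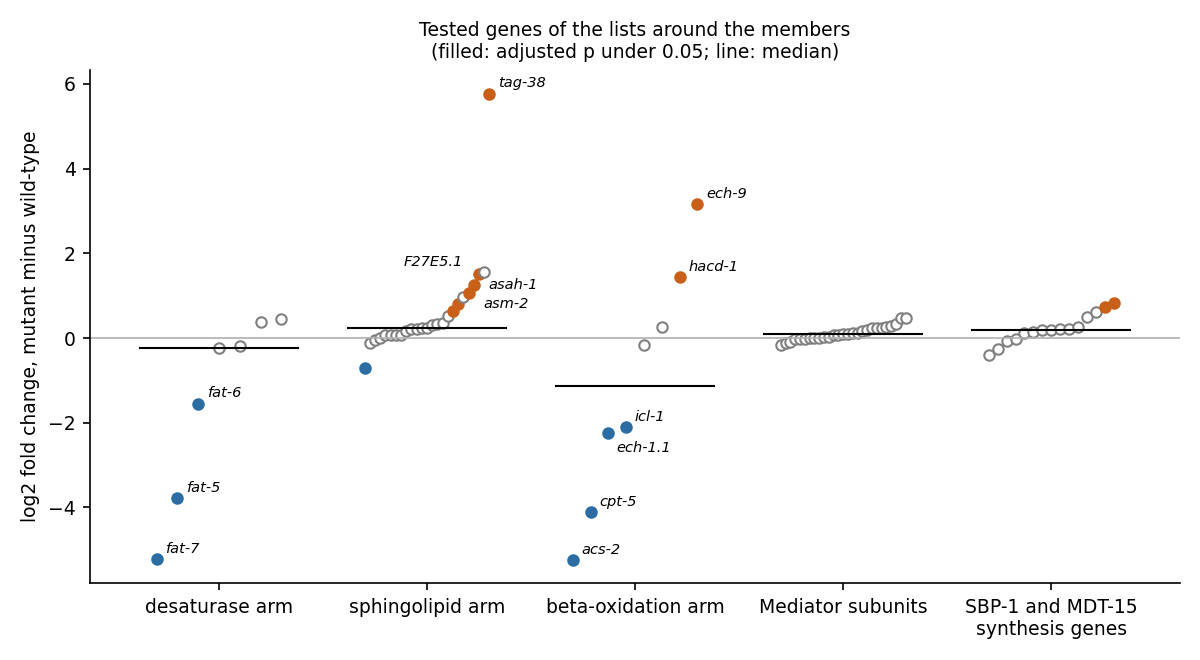
Log2 fold change (vertical axis, mutant minus wild type) of each tested gene in 5 lists, ordered within a list, filled where the adjusted p is under 0.05, with the list median as a line. The desaturase and β-oxidation lists hold the largest falls, *tag-38* at 5.77 leads the sphingolipid list, and no Mediator subunit is filled.

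For SBP-1 and MDT-15, 15 genes of fatty acid and phospholipid synthesis were taken, of which 2 were called higher and 0 lower, with a median of 0.19. The shares over all genes tested were 3.32% higher and 0.816% lower, with a median of 0.10. *elo-2*, a fatty acid elongase gene, was at 170, 196 and 186 RPKM in wild-type replicates 1 to 3 and at 284, 312 and 323 RPKM in the mutants (log2 fold change 0.73, limma adjusted p = 0.0074). *pcyt-1*, which serves phosphatidylcholine synthesis, was higher by 0.82 on the log2 scale (limma adjusted p = 0.023). Both calls were lost when wild-type replicate 3 or mutant replicate 2 was dropped, and that of *pcyt-1* also when wild-type replicate 1 or mutant replicate 3 was (limma adjusted p up to 0.095). Of the RAB-11 proteins that hold NHR-49 on vesicles or follow from its activity, *rab-11.1* was at 398 to 411 RPKM and 418 to 449 RPKM (log2 fold change 0.11, limma adjusted p = 0.675). *rab-11.2* was under the filter, with 0 to 4 reads in a wild-type and 5 to 11 reads in a mutant library.

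The genes whose levels over the 6 libraries were most like those of each member were listed as a description. With this few libraries a very high correlation is found for some gene among 13965 in any case, and the libraries share their totals and genotypes. For *nhr-49* they were ZK899.2 (Pearson r = 0.992) and *aagr-2* (r = 0.991), and *aagr-2*, which encodes a protein like acid alpha-glucosidase, was itself lower (log2 fold change -0.68, limma adjusted p = 0.0068). For *nhr-80* they were *ndx-7* (r = 0.998) and C08E3.13 (r = 0.996), of which C08E3.13 was higher (1.22, limma adjusted p = 0.0081). For *nhr-66* they were *klp-4*, a kinesin gene, and T19D12.2 (both r = 0.989), with changes of 0.09 and 0.29. The 10 genes most like the other 5 members (r from 0.966 to 0.997) had log2 fold changes from -0.28 to 0.30 and none was called, limma adjusted p from 0.573 upwards. They were *sod-3* and *tag-180* for *nhr-13*, C30B5.2 and *ceh-74* for *nhr-105*, Y39B6A.16 and F28A10.4 for *nhr-22*, *lmd-3* and *btbd-10* for *mdt-15*, and *gei-15* and Y32H12A.8 for *sbp-1*.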

How the data were processed

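Whole-animal mRNA of 3 wild-type and 3 *nhr-49(nr2041)* libraries was analysed. The deposited values are RPKM per gene and library, made by the authors in CLC Genomics Workbench, and the submitters' processing notes name build WBcel235. The mapper settings, strand use and annotation version were not given in the sources used here. All per-sample columns were used, and the authors' mean columns were not tested.

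The study's method, Baggerly's test, was replaced by limma 3.58.1 (trend and robust, statmod 1.5.0, R 4.3.3) on log2(RPKM + 1), with genotype as the only term and Benjamini-Hochberg adjustment over 13965 genes. Whole reads, within 0.01 reads, were recovered for 100.0% of the 19579 genes above 0 and used for depth and for limma voom as an alternative. The fit was tested on simulated data. Tables and plots were made with Python 3.11.15, pandas 2.3.3, numpy 2.4.6, scipy 1.17.1 and matplotlib 3.10.9. Coordinates and exon lengths come from Ensembl release 115 of WBcel235, and older sequence names of neighbouring genes from RefSeq. Counting errors cover counting only, and p-values the spread between these libraries.

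The members and lists were chosen with earlier results of these data known. Named were all members, up to 4 called genes per list by adjusted p (in short lists every tested gene), the 4 receptors with the smallest adjusted p in each direction, and the 2 genes most like each member. *fmo-2*, *rab-11.2*, *mdt-9*, *serp-1.2*, *idpc-1*, R12B2.8, R12B2.13 and the single marker genes were named outside this rule. Alternatives were quantile normalization, equal medians, no filter, at least 5 RPKM, pseudocounts of 0.1 and 0.5, voom, a replicate block, an unadjusted p, an added fold change threshold of 0.5, and libraries left out.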

Additional observations from a re-analysis of the deposited data

How the results depend on the processing

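The fold changes of *nhr-49*, *nhr-66*, *nhr-80*, *nhr-13*, *nhr-105* and *sbp-1* kept their direction under every alternative run. *mdt-15* reversed to -0.0525 after quantile normalization and -0.0940 with library medians set equal, and ran from -0.0267 to 0.150 with 1 library left out, and *nhr-22* ran from -0.0490 to 0.0307, so no direction is given for either. The deviations of same-numbered libraries correlated at -0.33, -0.16 and 0.34. With 3 libraries per genotype these values cannot settle whether replicate numbers pair the libraries. With a replicate block 0 members were called and 64 genes were lower, and the cause was not tested. With both outlying libraries (wild-type replicate 2, mutant replicate 1) left out, limma gave 1300 called genes in place of 577 (950 in place of 463 higher and 350 lower), and 3 members in place of 1. An unadjusted p under 0.05 gave 1839 genes (1521 higher and 318 lower) and 3 members. With 1 library left out there were 382 to 635 called genes, lowest without wild-type replicate 3 (319 to 506 higher, 63 to 138 lower, with 63 when wild-type replicate 3 or mutant replicate 2 was dropped) and 0 to 2 members, 0 without any 1 wild-type library or mutant replicate 2 and 2 without mutant replicate 1. Among the other lipid-linked receptors 1, *nhr-114*, was called after quantile normalization (log2 fold change -0.67, limma adjusted p = 0.049) in place of 0. The list counts with libraries left out were chosen after seeing the data. Without both outlying libraries 31 receptor genes were higher and 6 lower, 5 of the SBP-1 and MDT-15 genes were higher and 1 lower, 3 fat and stress regulators were higher, 1 HNF4-type receptor was higher, and 1 other lipid-linked receptor was higher and 1 lower. With 1 library left out the higher genes were 2 to 7 for sphingolipids, 0 to 2 for the SBP-1 and MDT-15 genes, 14 to 21 for receptors, and 0 to 1 for HNF4-type receptors and for fat and stress regulators, and the lower genes were 0 to 1 for sphingolipids and for other lipid-linked receptors and 0 to 2 for receptors. The desaturase and β-oxidation counts were the same in each of these fits. The partner ratios kept their direction with 1 library left out (lowest 0.28 on the log2 scale for *sbp-1*, highest 1.54 for *nhr-66*). With 135 reads at the fewest, depth limits *nhr-13* most.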

Other observations

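Among 20 tested genes on a list of other fat and stress regulators 1 was called, *mxl-3*, a basic helix-loop-helix repressor of lysosomal lipase genes. It was at 136, 154 and 122 RPKM in wild-type replicates 1 to 3 and at 46.3, 52.1 and 53.1 RPKM in the mutants (log2 fold change -1.42, limma adjusted p = 4.12e-04), and its call stood with each library left out in turn. Of the list 15 genes had positive fold changes and 6 were higher without overlap, with a median of 0.19 beside 0.10 for all genes. Over all genes tested 4.13% were called and 17.6% were higher without overlap. Without wild-type replicate 2 and mutant replicate 1, 3 were called higher. Of 10 other lipid-linked nuclear receptors and of 10 further receptors, most of them HNF4-type, limma called 0 of each, with medians of 0.16 and 0.23. All 10 of these further receptors had positive fold changes, and 7 of the 10 were higher without overlap, beside 17.6% of all genes. Their median was 0.10 after quantile normalization, where that of all genes was -0.04.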
